A study of Mus musculus with 47 samples.

Results

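Muscle progenitor cells of mouse embryos that lack both MyoD and Rbpj were compared with those of wild-type embryos, to measure the net departure from wild type after the loss of both genes. The members are the 7 arrays titled Rbpj;MyoD mutant and the 10 arrays titled wild type, 17 of the 47 arrays of the series. The Rbpj;MyoD embryos had the genotype Pax3cre/+;Rbpjflox/flox;MyoD-/-, in which both copies of MyoD are null and Cre recombinase, driven from the Pax3 gene, removes the floxed Rbpj in cells of the Pax3 lineage. The control label names only wild type and no Cre. An effect of Cre itself, or of the Pax3 allele that carries it, therefore cannot be told apart from the loss of Rbpj. The cells came from back muscle at embryonic stage E17.5, from mice whose mixed background joined C57BL/6 with 129/Sv and 129/Ola. Sorting kept cells with surface Vcam-1, which muscle progenitors display, and removed those with CD31 (endothelium), CD45 (blood cells) or Sca1 (interstitial mesenchyme). Values from the 18 MyoD-/- arrays and the 8 arrays of Pax3cre/+;DnMamlflox/flox;MyoD-/- embryos, in which a dominant-negative Mastermind blocks the Notch complex, are given beside the results. The remaining 4 arrays, from MyoD+/- embryos, entered the normalisation, probe filter and fit, and their values are not given. The labels do not say whether an array stands for 1 embryo or pooled embryos, so p-values measure the spread between arrays.

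Notch receptors are cut when a neighbouring cell presents a ligand of the Delta or Jagged family, and the freed receptor domain joins the DNA-binding protein Rbpj and Mastermind to switch on targets such as the Hes and Hey repressors. In developing muscle this pathway is known to hold progenitors in an undifferentiated state. MyoD is a basic helix-loop-helix factor that binds E-box sequences and turns on the muscle differentiation programme, and Notch signalling is known to oppose it.

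The targeted genes were examined first. Myod1 was detected on 47 of 47 arrays. Its log2 level ran from 10.76 through a median of 11.12 to 11.59 in wild type, and from 8.38 through 8.82 to 9.70 in Rbpj;MyoD. Every mutant array was below every wild-type array, and the level fell by 2.39 on the log2 scale (standard error, SE, 0.13; adjusted p 7.05e-18). It was also below MyoD-/- by 0.40 (adjusted p 0.00538). A signal thus remained on a null background, and the labels do not say whether the probe lies in the deleted part. None of the 3 Rbpj probes was detected on any of 47 arrays, so they do not check the deletion. Probes for Pax3 were detected on 0 arrays, for Myf5 on 2 and for Pax7 on 2 of the 47, with 1 of the 2 Pax7 arrays being wild type and 0 Rbpj;MyoD. The probes for these defining progenitor factors were thus almost always undetected, wild type included, and do not show whether the factors differ. The sort marker Vcam1 was detected on all 17 arrays and differed by 0.09 (SE 0.13, adjusted p 0.685).

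Levels are log2 intensities after background correction and quantile normalisation, and differences are Rbpj;MyoD minus wild type, adjusted for chip. Probes detected (detection p under 0.01) numbered 8761 to 11561 on wild-type and 9632 to 11819 on Rbpj;MyoD arrays, and the number of arrays limits the precision. Chips 1 and 2 hold 3 wild-type arrays each, chip 3 holds 3 Rbpj;MyoD arrays and no wild type, and chips 4 to 7 hold 1 of each. Chip 3 was also the dimmest, with array medians of 64.1 to 81.4 intensity units against 86.2 to 250 on the others. Its arrays are tied to wild type through arrays of the other genotypes that other chips also hold, so list medians within each of chips 4 to 7, which pair 1 array of each genotype, are given as a range beside most list medians. Wild-type replicate 4 stood apart in having the highest wild-type Thy1, Stmn2 and Wnt5a and the highest summed fibroblast markers (16.02 log2), and differences in these genes and in the fibroblast markers are also given without it.

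Of 8658 genes tested, 2187 (25.3%) passed an adjusted p of 0.05, of which 1099 (12.7%) were higher and 1088 (12.6%) lower in Rbpj;MyoD. A change of at least 1 log2 unit was seen in 573 genes (6.62%), 352 higher (4.07%) and 221 lower (2.55%). The 2 sets of arrays did not overlap for 257 genes that were higher (2.97%) and 229 that were lower (2.64%). The median change over all genes was -0.02. Of the 2187 called genes, 2004 (91.6%) had the same sign on 4 of 4 shared chips, against 49.4% of all genes, as a description since these arrays are in the fit.

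**Figure D1:**
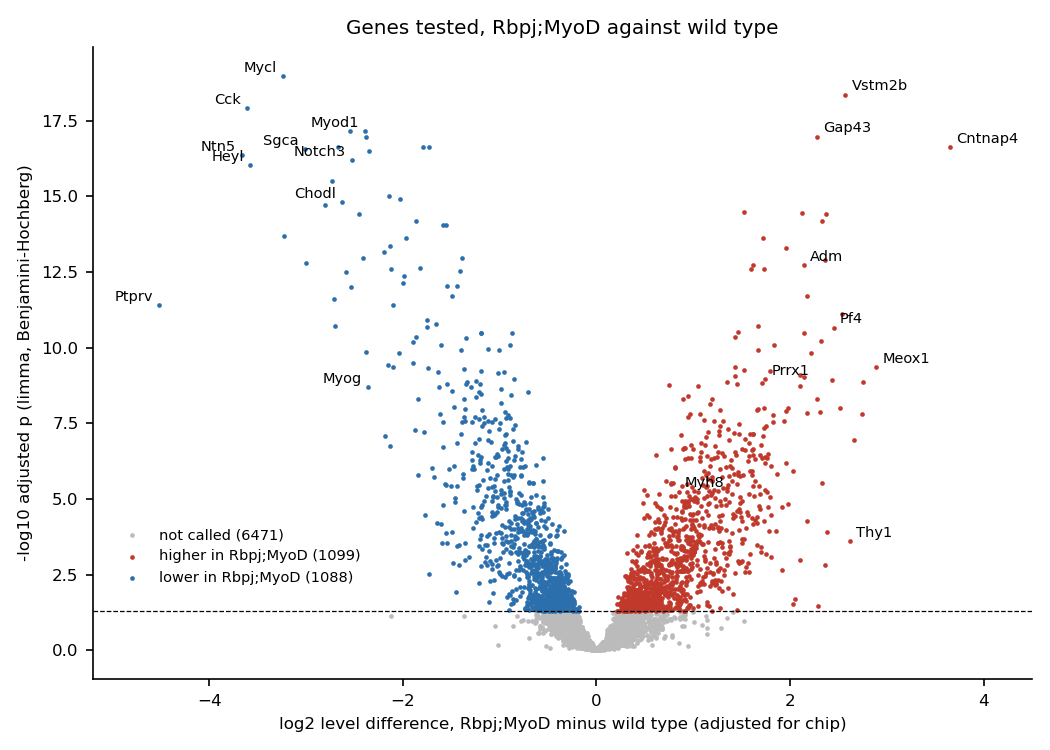
Each point is 1 of 8658 genes, with the chip-adjusted log2 level difference between Rbpj;MyoD (7 arrays) and wild type (10 arrays) on the x axis and -log10 of limma's adjusted p on the y axis; the dashed line is an adjusted p of 0.05. The 1099 higher and 1088 lower genes are similar in number, and the largest fall is Ptprv at -4.52 while the largest rise is Cntnap4 at 3.65.

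Notch target genes were lower together. Of 13 on the array, 8 passed the filter on dim probes and were tested, of which 7 fell (87.5%) and 1 rose, with a median of -1.58. With all 13 members kept, 7 still fell and the median was -0.35. Heyl, a Hey-family repressor, had levels of 8.25, 8.84 and 9.65 (lowest, median, highest) in wild type and of 5.08, 5.23 and 6.21 in Rbpj;MyoD. It was detected on 10 of 10 wild-type and 0 of 7 mutant arrays, and was at least 4.66-fold lower (fitted difference -3.58, SE 0.22, adjusted p 9.29e-17). Notch3, a receptor gene that is itself a Notch target, ranged from 11.52 through 11.79 to 12.13 in wild type and from 8.98 through 9.38 to 9.54 in the mutant. It fell by 2.53 on the log2 scale (SE 0.15, adjusted p 6.35e-17) with no overlap between the groups.

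Dtx4, which encodes a Deltex-family ubiquitin ligase, ranged from 11.13 through 11.32 to 11.57 in wild type and from 9.54 through 9.71 to 9.80 in Rbpj;MyoD. It fell by 1.59 on the log2 scale (SE 0.11, adjusted p 8.98e-15), again with no overlap. Of the other Hes and Hey family genes in the list, Hey1 fell by 2.12 (SE 0.17, adjusted p 2.5e-13), Hes1 by 0.60 (SE 0.13, adjusted p 0.000354) and Hes6 by 0.35 (SE 0.12, adjusted p 0.0238). Nrarp, a feedback inhibitor of Notch, fell by 1.57 (SE 0.25, adjusted p 3.13e-06). Ccnd1, which encodes the cell cycle activator cyclin D1, was the member that rose, by 0.95 (SE 0.16, adjusted p 1.33e-05).

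Notch targets were also lower in MyoD-/- than in wild type. Heyl averaged 8.82 in wild type, 7.03 in MyoD-/-, 5.48 in DnMaml;MyoD and 5.38 in Rbpj;MyoD. It was lower in MyoD-/- than in wild type by 1.88 (adjusted p 7.75e-12) and lower in Rbpj;MyoD than in MyoD-/- by 1.71 (adjusted p 1.82e-09). Over the list, 6 of 8 members fell in MyoD-/- against wild type, where 12% of all genes fell, and 5 of 8 fell in Rbpj;MyoD against MyoD-/-, where 12.3% fell. The 3 comparisons share arrays, and the net difference is the sum of the other 2 by construction. Nrarp and Hes6 did not pass the test between Rbpj;MyoD and MyoD-/- (differences of -0.16 and -0.01). Within chips 4 to 7 the list median ran from -1.75 to -1.59.

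Among 20 tested components of the pathway, 6 fell (30%, against 12.6% of all genes) and 0 rose. Their median was -0.09 (-0.23 to -0.09 within chips 4 to 7). Of the receptors, Notch1 fell by 1.19 (SE 0.11, adjusted p 3.21e-11) and Notch4 by 0.78 (SE 0.14, adjusted p 4.14e-05). Of the ligands, Dll1 fell by 1.37 (SE 0.16, adjusted p 5.04e-09) and Jag2 by 0.76 (SE 0.19, adjusted p 0.00224), while Jag1 had a difference of 0.12 and did not pass. Mfng, a Fringe glycosyltransferase that modifies Notch receptors, fell by 1.5 (SE 0.24, adjusted p 3.79e-06), and Psen2, a catalytic subunit of gamma-secretase, by 0.74 (SE 0.18, adjusted p 0.00147). Notch1 levels did not overlap between the groups, whereas Dll1 and Mfng levels did.

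**Figure D2:**
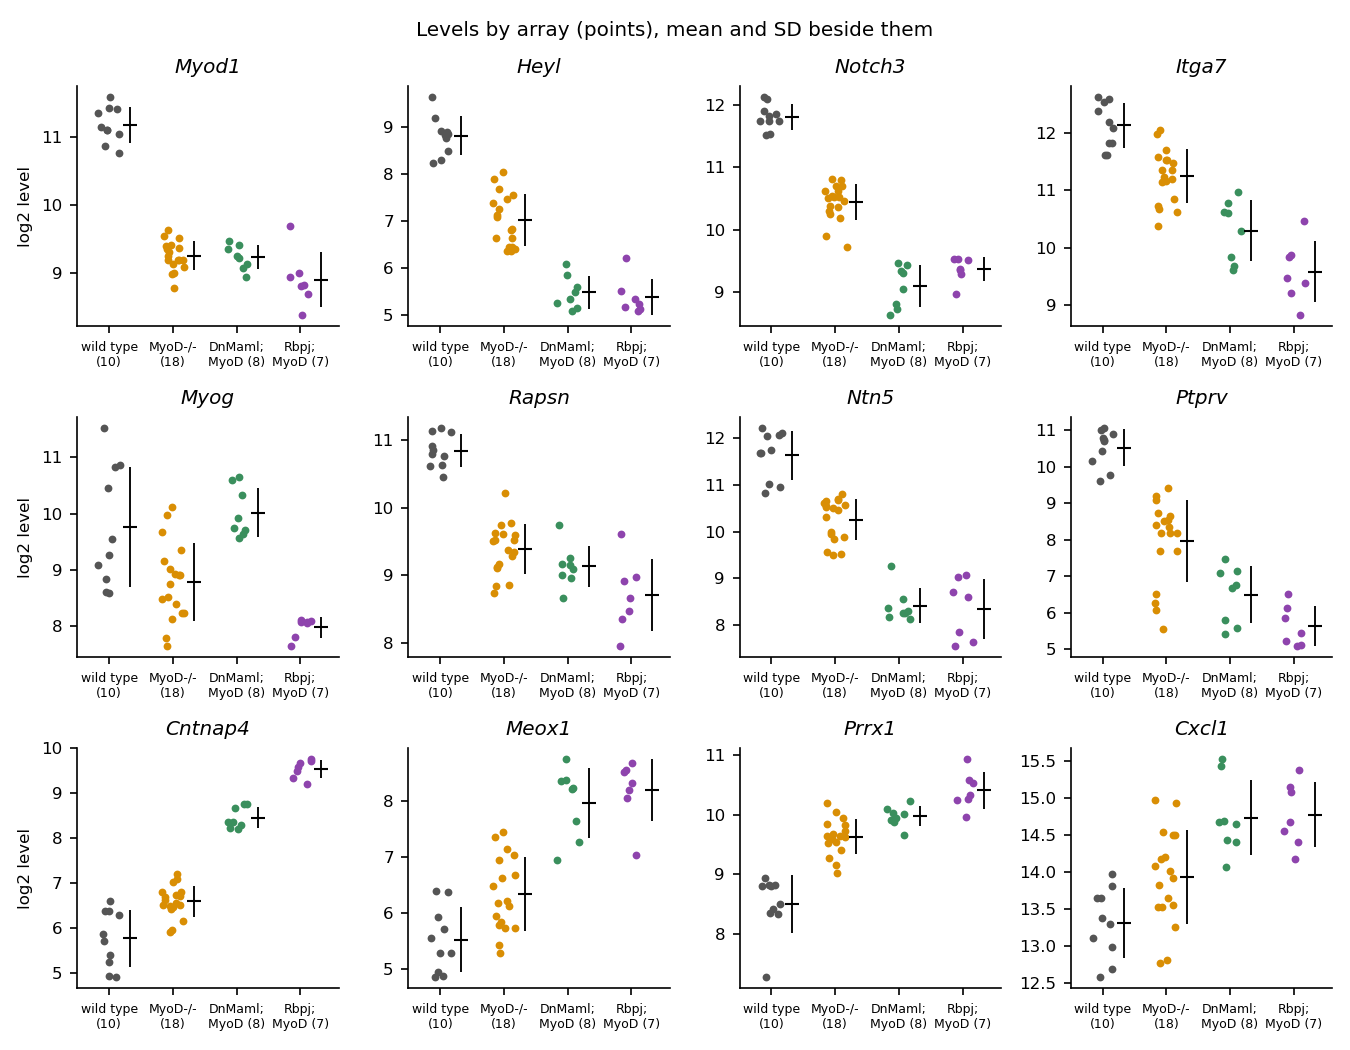
Log2 levels of 12 genes on each array (points) by genotype, with the number of arrays in brackets and the mean and SD drawn beside the points. Myod1, Heyl, Notch3, Itga7, Rapsn, Ntn5 and Ptprv are lower in Rbpj;MyoD than in wild type with no overlap, Cntnap4, Meox1, Prrx1 and Cxcl1 are higher with no overlap, and Myog spans 8.59 to 11.52 in wild type but 7.64 to 8.11 in Rbpj;MyoD.

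The myogenic transcription factors mostly fell or did not pass. Of 12 tested, 5 fell (41.7%, against 12.6% of all genes), 2 rose (16.7%, near the 12.7% of all genes) and 5 did not pass. The median was -0.35 and became -0.08 when undetected genes were set at their bound. It ran from -0.46 to -0.12 within chips 4 to 7, and was 0.04 when genes had to be detected on 7 of the 17 compared arrays. Myog, the factor that drives terminal differentiation, ran from 8.59 through 9.41 to 11.52 in wild type and from 7.64 through 8.07 to 8.11 in Rbpj;MyoD. It fell by 2.36 (SE 0.26, adjusted p 1.95e-09), and the groups did not overlap. Wild-type levels followed the chip, with 8.59 to 9.55 on chips 1 and 2 (replicates 1 to 6) and 10.45 to 11.52 on chips 4 to 7 (replicates 7 to 10), and the part of the chip in this spread was not tested. Within chips 4 to 7 the difference ran from -3.45 to -2.35. A second, dimmer Myog probe gave -0.70 (adjusted p 0.0606).

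Myog levels also set Rbpj;MyoD apart from DnMaml;MyoD. The mean was 7.98 in Rbpj;MyoD, 8.79 in MyoD-/- and 10.02 in DnMaml;MyoD. The chip-adjusted difference between the 2 Notch-deficient genotypes was -2.49 (adjusted p 1.3e-08). Mymk, the fusion protein myomaker, which was listed with these factors, fell by 1.77 (SE 0.32, adjusted p 3.24e-05) and was detected on 6 of 10 wild-type and 0 of 7 mutant arrays. Msc, the repressor musculin, ran from 14.54 through 14.68 to 14.97 in wild type and from 13.40 through 13.80 to 14.16 in the mutant. It fell by 0.85 (SE 0.09, adjusted p 1.04e-09) with no overlap, and MyoD-/- differed from wild type by -0.02 (adjusted p 0.882). Mef2c, a partner of myogenic factors, rose by 0.63 (SE 0.19, adjusted p 0.0121), and Eya1, a transcriptional co-activator, rose by 0.83 (SE 0.21, adjusted p 0.00242), while its relative Eya2 fell by 0.62 (SE 0.23, adjusted p 0.0421).

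Markers of muscle progenitors were lower as a group. Of 18 tested, 10 fell (55.6%), 2 rose (11.1%) and 6 did not pass, with a median of -0.77, or -0.69 with undetected genes at their bound (-1.15 to -0.75 within chips 4 to 7). Itga7, the laminin receptor integrin alpha 7, ran from 11.61 through 12.14 to 12.63 in wild type and from 8.82 through 9.47 to 10.47 in Rbpj;MyoD. It fell by 2.35 (SE 0.14, adjusted p 3.03e-17), and the arrays did not overlap. Megf10, an engulfment receptor of satellite cells, ran from 11.43 through 11.89 to 12.30 and from 9.39 through 10.30 to 10.69 in the same order. It fell by 1.79 (SE 0.10, adjusted p 2.37e-17), also without overlap.

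Calcr, the calcitonin receptor of quiescent satellite cells, was detected on 9 of 10 wild-type arrays (6.90, 7.31, 7.59) and on 0 of 7 mutant arrays (4.71, 4.77, 5.12). It was at least 1.61-fold lower, with a fitted difference of -2.67 (SE 0.15, adjusted p 2.37e-17). Chodl, a lectin-domain membrane protein, fell by 2.63 (SE 0.17, adjusted p 1.49e-15), Sox8 by 1.15 (SE 0.24, adjusted p 0.000326) and the growth factor receptor Fgfr4 by 0.93 (SE 0.19, adjusted p 0.000244). The members that rose were Des, the intermediate filament desmin, by 0.67 (SE 0.12, adjusted p 2.18e-05) and Sdc3, a heparan sulfate proteoglycan, by 0.40 (SE 0.14, adjusted p 0.0311). In bulk RNA, fewer cells of a type and less RNA per cell cannot be told apart.

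Genes of the postsynaptic muscle membrane and of the dystrophin complex fell in both lists. Of 10 neuromuscular synapse genes, 6 fell (60%, against 12.6% of all genes), with a median of -0.80. Of 7 dystrophin complex genes, 4 fell (57.1%), with a median of -1.04. Within chips 4 to 7 the medians ran from -1.16 to -0.85 and from -1.62 to -0.94. With dim probes kept, which adds members, they were -0.33 over 13 and -0.24 over 11 genes, with 1 gene rising in each list. Rapsn, which clusters acetylcholine receptors, ran from 10.45 through 10.83 to 11.18 in wild type and from 7.95 through 8.66 to 9.61 in Rbpj;MyoD. It fell by 2.55 (SE 0.14, adjusted p 7.05e-18) and the groups did not overlap. The receptor subunit genes Chrna1, Chrnb1 and Chrng fell by 1.44, 1.16 and 1.08 (adjusted p 1.38e-07, 1.87e-08 and 2.83e-08), and Musk, the receptor kinase for agrin signals, by 1.44 (SE 0.31, adjusted p 0.000356).

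Sgca, alpha-sarcoglycan, ran from 9.93 through 10.36 to 10.65 in wild type and from 7.0 through 7.27 to 8.01 in the mutant. It fell by 3.01 (SE 0.18, adjusted p 2.64e-17) with no overlap, and its other probes gave -1.68 and -3.16. Dag1, dystroglycan, fell by 1.44 (SE 0.12, adjusted p 9.28e-13), and Dtna, a dystrobrevin, by 1.19 (SE 0.24, adjusted p 0.000159). Cav3, the muscle caveolin, fell by 1.04 (SE 0.15, adjusted p 4.17e-07). Cav3 averaged 8.03 in MyoD-/- and 8.21 in DnMaml;MyoD, above the wild-type level, and was lower in Rbpj;MyoD than in either (-1.43, adjusted p 7.04e-12, and -1.63, adjusted p 4.37e-10).

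The proximal sequences of 5 genes that fell are shown for the motifs bound by the missing factors. They are RefSeq promoter sequences of GRCm38.p6, the 250 bases before the annotated start, with capitals marking TGGGAA, the core bound by Rbpj, or CAGCTG, an E-box bound by MyoD, each searched on both strands. Notch3 and Nrarp are shown as Notch targets, Ntn5 and Chrng because each holds both motifs, and Myog as the differentiation factor. The regions are chr17:32166891-32167140 (minus strand) for Notch3, chr2:25180508-25180757 (plus) for Nrarp, chr7:45683772-45684021 (plus) for Ntn5, chr1:87205561-87205810 (plus) for Chrng and chr1:134289754-134290003 (plus) for Myog.
Notch3: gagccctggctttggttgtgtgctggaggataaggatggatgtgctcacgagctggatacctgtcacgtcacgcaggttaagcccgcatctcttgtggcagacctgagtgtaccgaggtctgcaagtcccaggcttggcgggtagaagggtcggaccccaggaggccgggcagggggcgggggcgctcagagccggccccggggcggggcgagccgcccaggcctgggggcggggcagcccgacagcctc
Nrarp: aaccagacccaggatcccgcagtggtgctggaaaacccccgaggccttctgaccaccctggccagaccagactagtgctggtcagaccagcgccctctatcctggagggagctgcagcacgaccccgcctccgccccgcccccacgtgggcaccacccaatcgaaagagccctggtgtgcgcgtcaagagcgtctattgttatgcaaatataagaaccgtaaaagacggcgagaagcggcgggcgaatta
Ntn5: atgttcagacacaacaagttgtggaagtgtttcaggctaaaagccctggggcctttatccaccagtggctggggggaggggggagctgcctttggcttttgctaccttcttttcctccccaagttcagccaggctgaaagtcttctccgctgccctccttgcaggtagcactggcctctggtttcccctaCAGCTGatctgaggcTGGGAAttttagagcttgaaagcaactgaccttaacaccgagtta
Chrng: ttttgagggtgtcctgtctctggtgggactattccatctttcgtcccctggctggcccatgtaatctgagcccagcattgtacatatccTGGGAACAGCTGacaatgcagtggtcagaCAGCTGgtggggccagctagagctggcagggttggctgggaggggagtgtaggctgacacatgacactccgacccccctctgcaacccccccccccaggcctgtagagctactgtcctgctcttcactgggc
Myog: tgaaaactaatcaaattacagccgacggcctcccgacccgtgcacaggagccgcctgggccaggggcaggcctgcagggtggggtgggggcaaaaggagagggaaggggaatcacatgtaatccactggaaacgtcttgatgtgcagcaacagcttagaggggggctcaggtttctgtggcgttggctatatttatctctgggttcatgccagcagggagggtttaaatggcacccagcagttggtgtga
In Ntn5 the CAGCTG lies 60 and the TGGGAA 45 bases before the start, counted from the first base of each motif. In Chrng a TGGGAA at 161 bases directly adjoins a CAGCTG at 155, and another CAGCTG lies at 132. The Notch3, Nrarp and Myog stretches hold neither string, and other forms of the E-box were not searched. With the 50 bases after the start included, the Nrarp window holds 1 CAGCTG. Over windows that also include 50 bases after the start, TGGGAA was found for 29.4% of 866 called-lower genes, 25.7% of 846 called-higher genes and 26.6% of all 7028 tested genes with a window. CAGCTG was found for 21.6%, 21% and 18.1% of the same genes. Of all 32851 windows in the table, 25.6% hold TGGGAA and 16.3% hold CAGCTG. These are string matches and were not tested as sites.

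Contractile genes fell in part. Of 21 tested, 11 fell (52.4%), 1 rose and 9 did not pass, with a median of -0.44 (-0.91 to -0.48 within chips 4 to 7). Without the chip term 3 fell and the median was -0.19. Actc1, cardiac-type alpha-actin of embryonic muscle, ran from 13.32 through 13.88 to 14.48 in wild type and from 12.11 through 12.84 to 13.02 in Rbpj;MyoD. It fell by 1.21 (SE 0.15, adjusted p 2.2e-08), and the groups did not overlap. Myh8, the perinatal myosin heavy chain, was the member that rose, from 12.01 through 12.62 to 12.92 in wild type to 13.31 through 13.63 to 13.95 in the mutant. The rise was 0.85 (SE 0.14, adjusted p 5.65e-06) without overlap, and Myh8 was higher still in MyoD-/- (mean 14.29).

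The troponin genes Tnni1, Tnnc2 and Tnni2 fell by 1.03, 0.70 and 0.66 (Tnni2 by 0.39, adjusted p 0.244, without the chip term), while Tnnt1, Tnnc1 and the tropomyosins Tpm1 and Tpm2 had differences of -0.17, 0.13, 0.00 and 0.17 and did not pass. The summed level of the list ran from 15.81 to 16.21 in wild type on chips 1 and 2, from 16.57 to 16.82 in wild type on chips 4 to 7, and from 15.99 to 16.28 in all 7 mutant arrays. The mutant arrays were therefore below the wild-type arrays of chips 4 to 7 and overlapped the others. Ttn, titin, was chosen after its values were seen. It averaged 8.41 in wild type, 6.75 in MyoD-/- and 8.13 in Rbpj;MyoD, with a net difference of -0.33 (SE 0.21, adjusted p 0.271). Of 20 genes of excitation and calcium handling, 5 fell (25%) and 1 rose (5%), against 12.6% and 12.7% of all genes. Their median was -0.07, or 0.00 with undetected genes at their bound. Within chips 4 to 7 the median was lower, at -0.66 to -0.43. The calcium release channel Ryr1 fell by 1.75 (SE 0.16, adjusted p 1.98e-11), and its coupling protein Stac3 was at least 1.28-fold lower, with 7 of 10 wild-type and 0 of 7 mutant arrays detected.

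**Figure D3:**
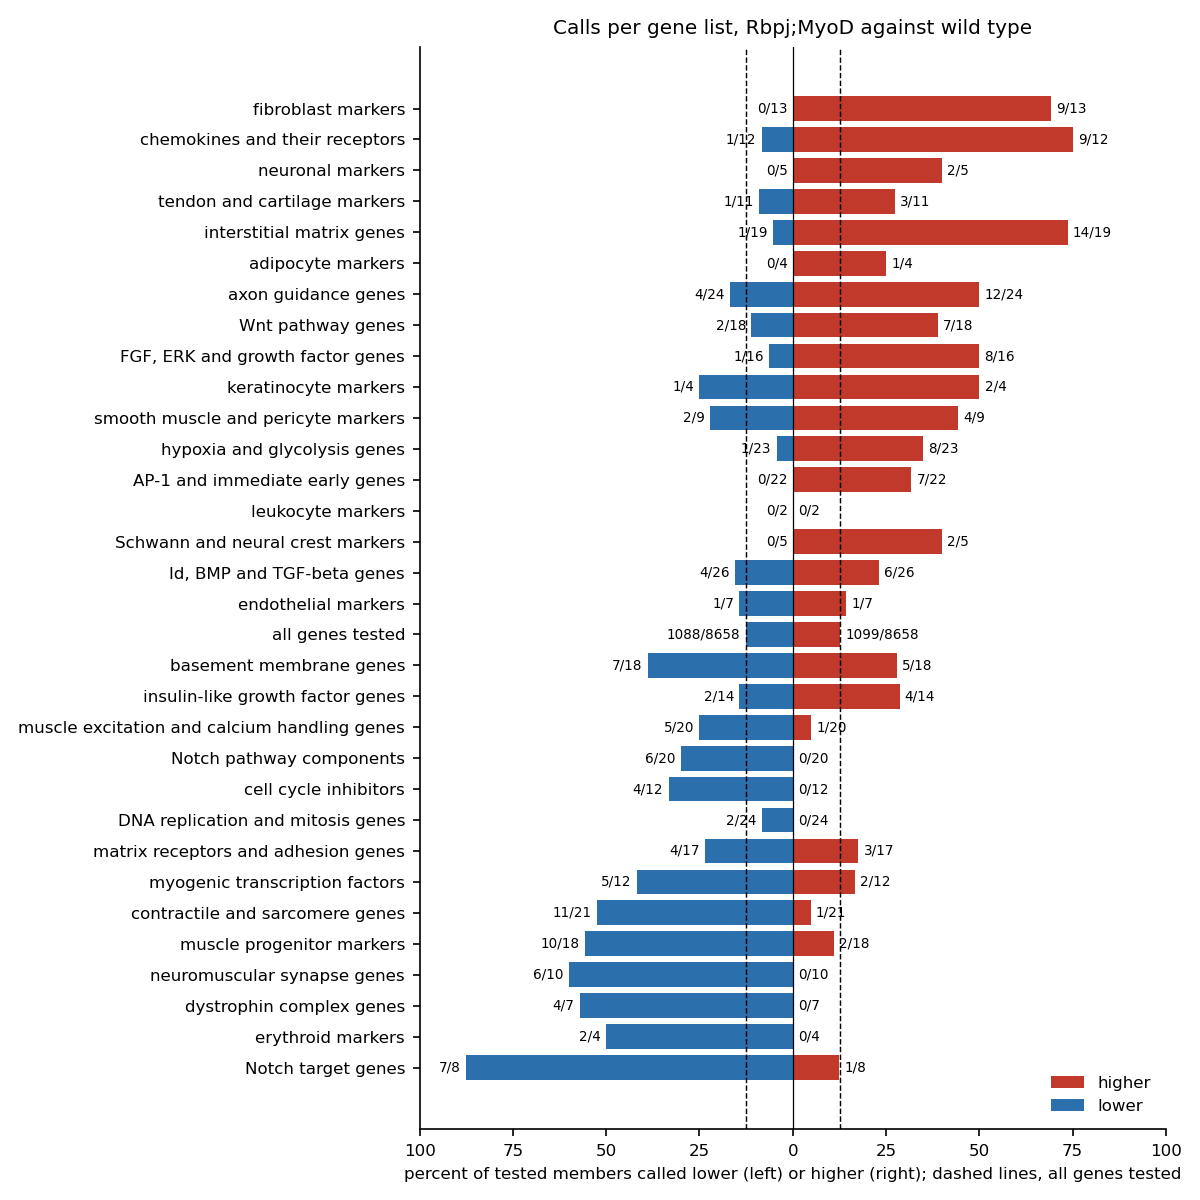
Percent of the tested members of each gene list called lower (bars to the left) or higher (bars to the right) in Rbpj;MyoD than in wild type at an adjusted p of 0.05, with the counts beside the bars and the lists ordered by median change. The dashed lines are the shares over all 8658 genes, 12.6% lower and 12.7% higher. Notch targets, neuromuscular synapse and dystrophin complex genes extend to the left, and chemokines, interstitial matrix genes and fibroblast markers to the right.

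Interstitial matrix genes rose. Of 19 tested, 14 rose (73.7%), 1 fell and 4 did not pass, with a median of 0.85 (0.47 to 0.74 within chips 4 to 7). Thbs2, the matricellular protein thrombospondin 2, ran from 10.75 through 12.07 to 12.52 in wild type and from 12.48 through 13.22 to 13.68 in Rbpj;MyoD. It rose by 1.26 (SE 0.20, adjusted p 5.53e-06), with a slight overlap of the groups. The fibrillar collagen genes Col1a1, Col3a1 and Col5a2 rose by 1.37, 1.11 and 0.97 (adjusted p 0.000635, 8.47e-05 and 3.09e-05). The crosslinking enzyme Lox rose by 1.43 (SE 0.26, adjusted p 3.61e-05), and Vcan, versican, was the member that fell (-0.42, adjusted p 0.0236).

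Against MyoD-/-, 13 of these 19 genes rose and 0 fell, at a background of 12.2% higher genes, whereas in MyoD-/- against wild type 2 rose and 2 fell, near the shares of all genes there (11.2% higher, 12% lower). Col1a1 averaged 12.79 in wild type, 12.25 in MyoD-/-, 13.08 in DnMaml;MyoD and 13.69 in Rbpj;MyoD. Basement membrane genes were split, with 7 of 18 lower (38.9%) and 5 higher (27.8%), against 12.6% and 12.7% of all genes. The type IV collagen gene Col4a2 ran from 14.11 through 14.36 to 14.69 in wild type and from 12.49 through 13.61 to 13.74 in the mutant, and fell by 0.99 (SE 0.11, adjusted p 6.59e-09) without overlap. The laminin genes Lamc1, Lamb1 and Lama2 fell by 0.84, 0.90 and 0.84, while Lamb2 rose by 0.82 (adjusted p 2.07e-05). Nid2, a nidogen linking laminin to collagen IV, rose by 1.19 (SE 0.18, adjusted p 1.84e-06).

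Fibroblast markers moved with the matrix genes. Of 13 tested, 9 rose (69.2%) and 0 fell, with a median of 1.28, or 1.22 with undetected genes at their bound, and within chips 4 to 7 the median ran from 1.04 to 1.19. Their summed level ran from 15.09 to 16.02 in wild type and from 15.99 to 16.62 in Rbpj;MyoD. Without wild-type replicate 4 the list median was 1.35 with 10 members higher, and that of the interstitial matrix genes 0.89 with 14 higher. Of the fibroblast list, Osr1 was detected on 0 of 10 wild-type and 4 of 7 mutant arrays and Pi16 on 0 of 10 and 1 of 7. Dcn, decorin, Lum, lumican, and the receptor gene Pdgfra were detected on 10 of 10 wild-type arrays. The part of such cells in the matrix result was not tested. Ly6a, which encodes the Sca1 used in the sort, is not analysed here.

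Prrx1, a homeobox factor of limb and connective tissue mesenchyme, ran from 7.28 through 8.66 to 8.94 in wild type and from 9.96 through 10.32 to 10.93 in the mutant. It rose by 1.74 (SE 0.19, adjusted p 1.1e-09) without overlap, and its other probes gave 1.56 and 1.54. Osr2, a zinc finger factor, ran from 12.60 through 13 to 13.55 and from 14.30 through 14.55 to 14.70, a rise of 1.43 (SE 0.14, adjusted p 4.26e-11) without overlap. Pdgfra rose by 1.57 (SE 0.38, adjusted p 0.00131) and Col14a1 by 1.61 (SE 0.24, adjusted p 1.6e-06). Fap, fibroblast activation protein, had a difference of -0.24 and did not pass, and neither did Twist2 at 1.29 (SE 0.69, adjusted p 0.183).

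Markers of other cell types, among them those removed by the sort, were present in part. Of the endothelial genes, Pecam1, which encodes CD31, was detected on 3 of 10 wild-type and 1 of 7 mutant arrays, and Cdh5, Kdr and Tie1 on 0 of the 17. Egfl7, a secreted endothelial factor, was detected on all 17 and averaged 10.81 in wild type and 10.19 in Rbpj;MyoD. Its chip-adjusted difference was -0.81. Eng, endoglin, was detected on 5 of 10 and 7 of 7 arrays and rose by 1.26 (SE 0.24, adjusted p 8.75e-05). The median of the 7 tested endothelial genes was 0.00 and ran from -1.14 to 0.34 within chips 4 to 7. Ptprc, which encodes CD45, was detected on 0 of 47 arrays. Erythroid RNA was present and lower in the mutant, with 2 of 4 markers lower (50%, against 12.6% of all genes). Hba-a1, alpha-globin, ran from 12.83 through 14.09 to 15.44 in wild type and from 12.21 through 13.57 to 14.39 in Rbpj;MyoD, and fell by 1.18 (SE 0.26, adjusted p 0.000455) with overlap. Smooth muscle and pericyte markers were mixed, with 4 of 9 higher (44.4%) and 2 lower (22.2%), against 12.7% and 12.6% of all genes. Among them were Tagln and Acta2 at -1.86 and -1.16 and Actg2 at 2.14. Of 5 Schwann and neural crest markers, Gap43 rose by 2.28 (SE 0.13, adjusted p 1.05e-17) and Ngfr by 1.03 (SE 0.22, adjusted p 0.000325), while the myelin gene Mbp had a difference of -0.26 and did not pass.

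**Figure D4:**
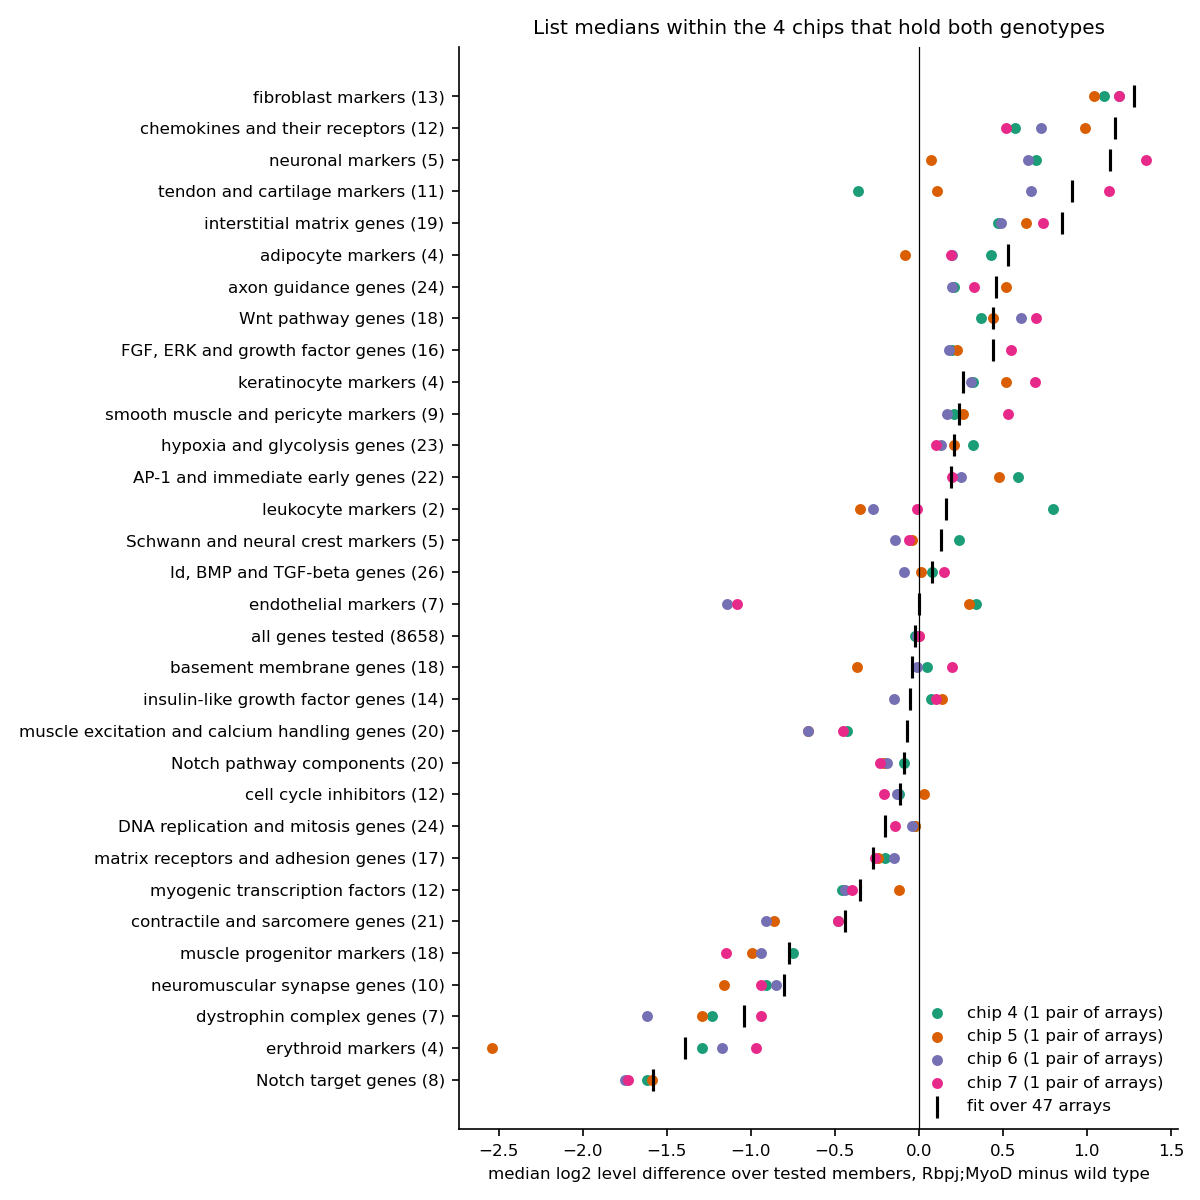
Median log2 difference over the tested members of each list (number in brackets) within chips 4, 5, 6 and 7, each the difference of 1 Rbpj;MyoD and 1 wild-type array (coloured points), and in the fit over 47 arrays (black bars). Notch targets lie between -1.75 and -1.58 and fibroblast markers between 1.04 and 1.28, while the endothelial and tendon and cartilage lists, among others, change sign between chips.

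Secreted signals were among the genes that rose. Of 12 chemokine and cytokine genes, 9 rose (75%) and 1 fell, with a median of 1.17, or 1.12 with undetected genes at their bound. Within chips 4 to 7 the median was lower, at 0.52 to 0.99. In a fit of the 2 genotypes alone, where the difference rests on chips 4 to 7, it was 0.72 with 5 genes higher. Cxcl1, a neutrophil chemoattractant, ran from 12.57 through 13.34 to 13.97 in wild type and from 14.18 through 14.67 to 15.38 in Rbpj;MyoD. It rose by 1.61 (SE 0.29, adjusted p 4.09e-05), and the groups did not overlap, with differences within chips of 0.54 to 2.0. Cxcl12 rose by 1.11 (SE 0.16, adjusted p 1.19e-06), while its receptor Cxcr4 was the member that fell, by 0.99 (SE 0.16, adjusted p 4.83e-06). Wnt pathway genes rose in 7 of 18 cases (38.9%) and fell in 2 (11.1%), against 12.7% and 12.6% of all genes. The ligand Wnt5a led the rises at 1.64 (SE 0.30, adjusted p 5.02e-05), or 1.75 without wild-type replicate 4.

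Among growth factor genes, 8 of 16 rose (50%) and 1 fell (6.25%), against 12.7% and 12.6% of all genes. Etv4, a transcription factor induced by fibroblast growth factor signals, ran from 5.50 through 7.15 to 8.18 in wild type and from 7.79 through 8.30 to 9.48 in the mutant. It rose by 1.71 (SE 0.24, adjusted p 4.36e-07) with overlap, and averaged 5.93 in MyoD-/-, below wild type. Vegfa, an angiogenic factor, rose by 0.81 (SE 0.12, adjusted p 8.68e-07), and Pdgfra is also in this list. Of 26 Id, BMP and TGF-beta genes, 6 rose (23.1%) and 4 fell (15.4%, near the 12.6% of all genes), with a median of 0.08. Tgfbi, a matrix protein induced by TGF-beta, rose by 1.67 (SE 0.15, adjusted p 1.91e-11), Fst, the activin and myostatin inhibitor follistatin, by 1.80 (SE 0.32, adjusted p 3.24e-05) and Bmp7 by 1.17 (SE 0.17, adjusted p 7.79e-07), while the TGF-beta binding protein gene Ltbp1 fell by 1.27 (SE 0.19, adjusted p 1.01e-06). Among 14 insulin-like growth factor genes, 4 rose (28.6%) and 2 fell (14.3%, near the 12.6% of all genes), with a median of -0.05. They included Igfbp2 at 0.82 and Igfbp5 at -0.54, the latter with an adjusted p of 0.0914 in a fit of the 2 genotypes alone.

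Axon guidance genes rose in 12 of 24 cases (50%) and fell in 4 (16.7%), against 12.7% and 12.6% of all genes. Their median was 0.46, or 0.18 with undetected genes at their bound (0.20 to 0.52 within chips 4 to 7). Slit2, a repulsive ligand of Robo receptors, ran from 9.28 through 9.95 to 10.60 in wild type and from 10.47 through 11.19 to 11.79 in the mutant, a rise of 1.43 (SE 0.15, adjusted p 8.36e-10) with overlap. Sema3a rose by 1.15 (SE 0.18, adjusted p 2.12e-06). In the other direction, Ntn5, a netrin, ran from 10.82 through 11.72 to 12.22 and from 7.54 through 8.59 to 9.06. It fell by 3.66 (SE 0.22, adjusted p 4.26e-17) with no overlap.

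In the 2 cell cycle lists no gene rose, against 12.7% of all genes. Of 24 replication and mitosis genes, 0 rose and 2 fell (8.33%, near the 12.6% of all genes). Their median was -0.20 (-0.14 to -0.02 within chips 4 to 7), against -0.02 over all genes. The falls were Cdc6, a replication licensing factor, by 0.45 (SE 0.13, adjusted p 0.00984) and Kif11, a spindle motor, by 0.38 (SE 0.11, adjusted p 0.00824), and both calls were lost under scaling of each array to 1 shared median (adjusted p 0.139 and 0.236). Of 12 inhibitors, 4 fell (33.3%) and 0 rose, with a median of -0.11, led by the retinoblastoma gene Rb1, which ran from 10.61 through 10.87 to 11.35 in wild type and from 9.40 through 9.79 to 10.20 in Rbpj;MyoD. It fell by 1.34 (SE 0.15, adjusted p 1.35e-09) without overlap. The damage-response gene Gadd45a fell by 0.89, and the Cdk inhibitor gene Cdkn1a had a difference of 0.20 and did not pass. Among 22 immediate early genes, which respond to stress and cell dissociation, 7 rose (31.8%, against 12.7% of all genes) and 0 fell. Those that rose included Fosl1, by 1.76 (SE 0.29, adjusted p 5.66e-06), and Atf3, by 1.03 (SE 0.20, adjusted p 0.000111). Fos, Junb and Egr1 had differences of -0.01, 0.07 and -0.03. Of 23 hypoxia and glycolysis genes, 8 rose (34.8%) and 1 fell (4.35%), against 12.7% and 12.6% of all genes. The rises were led by the peptide hormone gene Adm, adrenomedullin, at 2.14 (SE 0.17, adjusted p 1.83e-13).

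The largest rise was that of Cntnap4, a neurexin-family adhesion protein of neurons. Its level ran from 4.90 through 5.79 to 6.59 in wild type, where 2 of 10 arrays detected it, and from 9.21 through 9.58 to 9.76 in Rbpj;MyoD. It rose by 3.65 (SE 0.21, adjusted p 2.37e-17), and a second probe gave 1.43. Its mean was 6.59 in MyoD-/- and 8.45 in DnMaml;MyoD, and Rbpj;MyoD was above DnMaml;MyoD by 0.99 (adjusted p 0.00201).

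Meox1, a somite homeobox factor that is also in the fibroblast list, ran from 4.85 through 5.42 to 6.40 in wild type and from 7.03 through 8.32 to 8.68 in the mutant, a rise of 2.89 (SE 0.30, adjusted p 4.32e-10). Vstm2b ran from 8.09 through 8.43 to 9.08 and from 10.85 through 11.03 to 11.56, a rise of 2.57 (SE 0.13, adjusted p 4.3e-19). Neither gene overlapped between the groups. Pf4, platelet factor 4, was detected on 0 of 10 wild-type and 7 of 7 mutant arrays and was at least 3.37-fold higher. It differed by -0.04 between MyoD-/- and wild type and by 2.48 between Rbpj;MyoD and MyoD-/- (adjusted p 2.7e-13).

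Syt13, a synaptotagmin, and Sprr2k, a cornified envelope protein, were also detected on 0 of 10 and 7 of 7 arrays. They were at least 2.15-fold and 2.12-fold higher. Syt13 averaged 6.16 in MyoD-/- and 7.80 in Rbpj;MyoD (fitted difference 1.57, adjusted p 2.55e-08). Sprr2k averaged 7.70 in MyoD-/- and 7.78 in Rbpj;MyoD (fitted difference 0.20, adjusted p 0.64). Ppl, periplakin, a keratinocyte marker, was at least 1.98-fold higher, but its second probe gave 0.03 (adjusted p 0.928). Ppl averaged 8.30 in MyoD-/- and 7.68 in Rbpj;MyoD (fitted difference -0.28, adjusted p 0.458). Rgs17, a regulator of G protein signalling, rose by 2.75, Thbd, thrombomodulin, by 2.66, the neural adhesion gene Ntm by 2.43 and the prostaglandin transporter gene Slco2a1 by 2.38, which on chips 4 to 7 alone was 1.24 (adjusted p 0.0884). Thy1, a surface glycoprotein of fibroblasts and neurons, ran from 7.59 through 8.08 to 11.65 in wild type and from 9.89 through 10.43 to 11.51 in the mutant. It rose by 2.62 (SE 0.54, adjusted p 0.000239), or by 2.86 without wild-type replicate 4, the array at 11.65.

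The largest fall was that of Ptprv, a receptor-type tyrosine phosphatase. It ran from 9.61 through 10.73 to 11.07 in wild type and from 5.09 through 5.45 to 6.5 in Rbpj;MyoD, where 2 of 7 arrays detected it. It fell by 4.52 (SE 0.39, adjusted p 3.82e-12), with means of 7.96 in MyoD-/- and 6.49 in DnMaml;MyoD between the extremes. Cck, the peptide hormone cholecystokinin, ran from 10.58 through 11.28 to 11.82 and from 6.5 through 7.44 to 8.34, and it fell by 3.61 (SE 0.19, adjusted p 1.23e-18). Mycl, a Myc-family factor, ran from 9.92 through 10.79 to 11.19 and from 7.63 through 7.81 to 8.19, and it fell by 3.24 (SE 0.15, adjusted p 1.02e-19). In neither gene did the arrays of the groups overlap.

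Mycl and Cck were also lower than in DnMaml;MyoD, by 1.78 (adjusted p 1.12e-10) and 1.47 (adjusted p 6.33e-07), in a comparison that called 588 genes (6.79%), 277 higher (3.2%) and 311 lower (3.59%). The remaining large falls were in Asb2, a substrate adaptor of a ubiquitin ligase, by 3.23, the retinoid-binding protein gene Rbp7 by 3.0, the anion transporter gene Slco2b1 by 2.81, the neuronal cytoskeletal regulator gene Dpysl5 by 2.73 and the homeobox gene Dbx1 by 2.70. Sptb, beta-spectrin, was detected on 10 of 10 wild-type and 0 of 7 mutant arrays and was at least 2.73-fold lower. Embryo sex was read from sex-linked transcripts. In a limma test of whether the genotype difference depended on it, 0 of 8658 genes passed an adjusted p of 0.05. An unadjusted p under 0.05 was found for 889 genes, where chance alone gives a share of about 0.05. With 3 female and 4 male Rbpj;MyoD arrays, the test cannot show that sex makes no difference.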

How the data were processed

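Total RNA was amplified to biotin-labelled cRNA and hybridised to Illumina bead arrays, per the labels' protocols. The deposited table gives the authors' probe intensity on a linear scale and a detection p-value for each array, not normalised between arrays as judged from the values. Both were exported with GenomeStudio 2010.1, per the submitters' processing notes. A further deposited table of processed intensities, raised to a minimum of 16, was tried as an alternative, and the labels do not describe its steps. Every array counted as a sample. Arrays at the same position on chips 6 and 7 resembled each other (median residual correlation 0.511, 7 of 12 best with their partner). Of 6 pairs, 2 differed in sex, which does not settle whether the remaining pairs are the same samples. Joining all pairs was therefore an alternative, and it called 1736 genes (881 higher, 855 lower) against 2187.

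Background was estimated through the detection p-values, and after an offset of 16 and quantile normalisation log2 was taken (neqc, limma 3.58.1, R 4.3.3). Of 25697 probes, 12482 were detected (p under 0.01) on at least 4 arrays, 718 of them without a gene name. The brightest probe of each gene gave 8658 genes, named through the platform annotation and RefSeq. All 47 arrays and 5 genotypes, MyoD+/- among them, were fitted together with chip as a fixed effect (lmFit, eBayes, 36 residual degrees of freedom). Called genes are those whose two-sided p, adjusted by Benjamini-Hochberg over the 8658 genes, was under 0.05. Where a gene was undetected on every array of a group, "at least" compares the other group's mean with a mean floor, which on each array is the higher of the lowest signal of any detected probe and the gene's own signal. Other genes can be undetected above that floor.

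Alternatives changed the normalisation, background correction, filter, probe rule, chip term, samples and chips used, sex as a covariate and each single array. The fit was tested on simulated data. Named genes are Myod1, Rbpj, the 12 called genes that rose most, the 12 that fell most (predicted and sex-linked genes passed over) and up to 3 called members of each of 31 lists with the lowest adjusted p, or the tested member with the lowest p. Other list members named were chosen after their values were seen. The comparison, the lists and this rule were chosen with earlier results of these data known.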

Additional observations from a re-analysis of the deposited data

Results flagged for a closer look

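On 14 of the 204 gene and group combinations tested, 1 array lay far from the others of its genotype by Dixon's criterion, which chance alone gives for about 1 group in 20. Of the Rbpj;MyoD arrays, replicate 3, on the dim chip 3, held 5 of them, with Heyl at 6.21 (nearest other array 5.51), Sptb at 6.64, Etv4 at 9.48, Cdc6 at 9.02 and Tgfbi at 12.64 log2. The other Rbpj;MyoD values were Meox1 at 7.03 in replicate 1 and Notch3 at 8.98 in replicate 6. Wild-type replicate 1 was low in Rbp7 at 9.44, Thbs2 at 10.75, Ltbp1 at 8.97 and Prrx1 at 7.28. Wild-type replicate 4 was high in Thy1 at 11.65 and Stmn2 at 7.77 and low in Myh8 at 12.01. Leaving out any 1 of the 17 arrays kept the direction and the call of the genotype difference in each of these 14 genes.

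Outside the named genes, 72 of the 718 detected probes without a gene name were higher and 83 lower in Rbpj;MyoD than in wild type at an adjusted p under 0.05 in a limma fit over probes.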

How the results depend on the processing

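Of the 101 named genes called, 0 changed direction and 66 kept their call under each of the 37 alternatives run, while 35 lost it under at least 1. All 35 lost it in the fit with replicate number as a block. The count of 2187 called genes became 1387 (781 higher, 606 lower) with arrays scaled to a common median, 1311 (690 higher, 621 lower) with only wild-type and Rbpj;MyoD arrays, which leaves fewer residual degrees of freedom, and 458 (243 higher, 215 lower) with the replicate block. Same-numbered samples lie on different chips. Their deviations from the genotype mean had correlations of -0.419 to 0.289 over 7 pairs. The chip effect was left in these deviations, so they cannot show whether the numbers pair the samples. The count of genes changed by at least 1 log2 unit was 573, against 297 without background correction and 381 with the replicate block. Leaving out each array in turn gave 1833 to 2218 called genes, and leaving out each chip 1697 to 2138. Genes that passed the test of a genotype difference depending on sex numbered 0, but 3 without chip 5. They numbered 0 to 4 when single arrays were left out, the 4 without wild-type replicate 8 and 2 without Rbpj;MyoD replicate 2. Chad lost its call under 18 alternatives, Kif11 under 5 and Cdkn2c under 4. The cause was not tested. List medians were most often moved by over 1.5 times when dim probes were kept, which adds members near background, from 0.44 to 0.20 for growth factor genes, from 0.44 to 0.12 for Wnt, from 0.53 to 0.05 for adipocyte, and to 0.04 for axon guidance, -0.26 for contractile and -0.48 for progenitor lists, beside those given above. Without background correction the dystrophin complex median was -0.55, the myogenic factor median -0.16, the axon guidance median 0.26, the neuronal median 0.64 and the tendon median 0.53. Without the chip term the growth factor, Wnt, adipocyte, neuronal and tendon medians were 0.17, 0.20, 0.18, 0.55 and 0.37. With the replicate block the fibroblast and interstitial matrix medians were 0.71 and 0.47, with 4 and 1 genes called higher. Without Rbpj;MyoD replicate 7 the Wnt median was 0.29 and the tendon median 0.52. Dim probes near the detection limit, such as those of Car9, Chad and Stmn2, bound what these arrays can measure.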

Other observations

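Several groups of genes were not described above. Of 17 matrix receptors and adhesion genes, 3 rose (17.6%) and 4 fell (23.5%), against 12.7% and 12.6% of all genes, with a median of -0.27. Kirrel3, an immunoglobulin-family adhesion gene, ran from 5.63 through 6.73 to 7.57 in wild type and from 8.22 through 8.86 to 9.77 in Rbpj;MyoD, a rise of 1.96 (SE 0.23, adjusted p 1.22e-08) without overlap. It averaged 9.18 in MyoD-/-. Mcam, the cell surface molecule CD146, fell by 0.76 (SE 0.11, adjusted p 8.43e-07), although it was above wild type by 0.31 in MyoD-/- (adjusted p 0.00511). Bcam, a laminin receptor, fell by 1.25 (SE 0.14, adjusted p 4.39e-09), and the integrin gene Itga5 rose by 0.85 while Itga6 and Itga1 fell by 0.65 and 0.83.

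Markers of other tissues were few in number. Of 11 tendon and cartilage genes, 3 rose (27.3%) and 1 fell (9.09%), against 12.7% and 12.6% of all genes. Their median was 0.91, or 0.30 with undetected genes at their bound (-0.36 to 1.13 within chips 4 to 7). Mkx, a tendon homeobox factor, was detected on 0 of 10 wild-type and 7 of 7 mutant arrays and was at least 1.95-fold higher, while Scx, the tendon factor scleraxis, fell by 0.97 (SE 0.21, adjusted p 0.000552). Of 5 neuronal markers, 2 rose (40%), with a median of 1.14 (0.07 to 1.35 within chips 4 to 7, 1.19 without wild-type replicate 4, and 0.03 over 12 genes with dim probes kept). They were Nefm, a neurofilament gene, by 1.17, and Stmn2, a neuronal microtubule regulator, by 1.29, or 1.51 without wild-type replicate 4. Stmn2 was detected on 1 of 10 wild-type and 3 of 7 mutant arrays. Tubb3 and Snap25 were detected on 0 of 47 arrays. Of 4 keratinocyte markers, 2 rose (50%) and 1 fell (25%), with a median of 0.26, and Krt5 was detected on 0 of 47 arrays. Of 4 adipocyte markers, Zfp423 rose by 1.37 (SE 0.18, adjusted p 1.12e-07) and 0 fell. Of 2 leukocyte markers tested, 0 were called, and Lyz1 had a difference of 0.34 (SE 0.25, adjusted p 0.343).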
